A study of Drosophila melanogaster with 2 samples.

Results

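The genes described here encode 10 core regulators of the cell cycle in Drosophila melanogaster. They are the kinases aurA, aurB, polo, Cdk1 and Cdk2, the cyclins CycA, CycB3 and CycE, the phosphatase stg and the APC/C activator fzy. They were chosen by name, with earlier results of these data known, and are 10 of the 13968 protein-coding genes on 7 chromosome arms. For each one, every listed row was taken whose summit lay in the gene or within 1 kb of it, which is called its window here. The rows came from an anti-GFP ChIP-seq experiment on 2 samples of whole embryos of mixed sex, aged 0 to 24 h. The embryos were of the strain Pum-MiMIC-GFP, in which an eGFP exon inserted in an intron of pum yields a Pum-eGFP fusion from the gene's own locus, and chromatin had been sonicated to 200 to 800 bp. Both samples, biological replicates 2 and 3, belonged to 1 group, and whether they came from separate collections of embryos is not stated in the labels. The authors derived their lists with a control file whose values were not used here, and no signal from untagged embryos can be given for comparison. All embryonic tissues and ages were mixed, and a site bound in few cells cannot be told apart from one bound weakly in many.

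Progress through the cell cycle is driven by cyclin-dependent kinases, which are active only when joined to a cyclin. CycE with Cdk2 drives entry into S phase, while CycA and CycB3 act with Cdk1 in mitosis. The phosphatase encoded by stg, the Cdc25 of the fly, removes inhibitory phosphates from Cdk1, and its transcription times the divisions of the cellularised embryo. Polo and Aurora A act at centrosomes and on the spindle, and Aurora B acts at centromeres and in cytokinesis. The fzy product, the fly Cdc20, directs the anaphase-promoting complex (APC/C) to destroy mitotic cyclins. Most of these mRNAs are also loaded into the egg by the mother. Pum itself is an RNA-binding repressor best known for acting on maternal mRNAs, and the assay here measured the tagged protein's association with chromatin, not with RNA.

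The deposited lists gave 8 optimal rows in the 10 windows, at aurA, polo, Cdk1, Cdk2 and CycE. The authors' optimal list, made from the pooled and replicate lists by a rule for reproducibility whose settings are not stated, holds 3970 rows, all of them the strongest in the pooled list. For each gene, the sequence around its strongest optimal summit within 1 kb of an own start is shown, since these are sites that the values below describe. For CycE that is the summit 662 bp upstream of an internal start, not the slightly weaker one at 406 bp that counts as its row within 500 bp of a start. Each is at most 150 bases, read 5′ to 3′ on the gene's strand from the RefSeq Release 6 genome (the dm6 build). Capitals mark a DRE, TATCGATA, the palindromic binding site of the transcription factor Dref. The 150 bases around the polo summit are all annotated 5′ UTR and are not printed. CycA had no optimal row, and its stretch was added after the motif search because the start row of CycA holds the same element. The Cdk2 and CycA stretches end where their transcripts begin. The intervals are chr3R:11962886-11963035 on the plus strand for aurA, chr2L:10386378-10386527 on the minus strand for Cdk1, chr3R:20735509-20735622 on the plus strand for Cdk2, chr2L:15747197-15747346 on the minus strand for CycE and chr3L:11833579-11833658 on the minus strand for CycA.
aurA: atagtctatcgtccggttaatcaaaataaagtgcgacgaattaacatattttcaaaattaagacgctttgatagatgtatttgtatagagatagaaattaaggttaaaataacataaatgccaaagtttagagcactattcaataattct
Cdk1: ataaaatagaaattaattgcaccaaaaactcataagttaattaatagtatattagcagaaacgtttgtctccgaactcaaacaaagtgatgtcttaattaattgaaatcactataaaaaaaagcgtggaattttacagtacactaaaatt
Cdk2: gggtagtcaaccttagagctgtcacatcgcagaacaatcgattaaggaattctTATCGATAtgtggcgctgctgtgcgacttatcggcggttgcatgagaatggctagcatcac
CycE: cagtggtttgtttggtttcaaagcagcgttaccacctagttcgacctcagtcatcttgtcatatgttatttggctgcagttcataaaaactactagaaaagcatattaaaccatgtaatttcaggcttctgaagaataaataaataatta
CycA: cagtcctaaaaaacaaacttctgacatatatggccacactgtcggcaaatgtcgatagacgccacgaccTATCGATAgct

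The stretches differed in base composition. The aurA stretch was 27.3% G or C and that of Cdk1 25.3%, against 34.0% for CycE, 45.0% for CycA and 48.2% for Cdk2. Within 100 bp of the summit, the strongest aurA row had 26.4% and the Cdk1 row 25.4%, below the median of 36.3% over all 3970 optimal rows, while the polo row had 43.8%. A DRE lay within 100 bp of 1 of the 8 optimal summits, that of Cdk2, against 4.56% of all optimal rows. The Cdk2 element was at chr3R:20735562-20735569, 18 bp from the summit and 57 bp upstream of the gene's start. When the strongest pooled row within 500 bp of an own start was taken for each gene instead, CycA joined it, so that 2 of 10 members had the element, against 9.0% of the 6746 protein-coding genes with such a row. The CycA element, at chr3L:11833582-11833589, lay 2 bp from the summit and 8 bp upstream of the start. The sequence that Pum recognises in RNA, TGTANATA read as DNA on either strand, was within 100 bp of 0 of the 8 optimal summits, against 9.27% of all optimal rows. It was also not found within 100 bp of the start rows of the 10 members, against 6.46% of genes. Within 200 bp of those rows, 1 of the 10 members had a copy, 163 bp from the aurB summit, against 13.3% of genes. The E2F element, searched as TTTCGCGC and TTTGGCGC on both strands, was at 0 of the 8, against 1.71% of optimal rows. It was at 0 of the start rows of the 10 members, against 2.21% of genes. Since the DRE was the only element found within 100 bp, no matches overlapped, and a missing match says only that these letters were not in the window.

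Among the 10 genes, 5 had an optimal row in the window, against 27.4% of all protein-coding genes. The same 5 had one within 500 bp of an own transcript start, against 18.7% of protein-coding genes. That count was 3 without replicate 3, against 18.6% of protein-coding genes, and 3 with only the stronger 50% of optimal rows, against 10.9%. The count in the window was also 3 with the stronger 50% of rows, against 16.6%, and 3 with the gene span alone, against 10.4%. A row of the pooled list, which reaches down to a signal of 23.2, lay within 500 bp of an own start in all 10, against 48.3%. The other 5 genes lay below the lowest optimal signal. Their strongest pooled signals in the window were 73.5 at CycB3, 71.9 at fzy, 70.4 at aurB, 70.3 at CycA and 69.5 at stg, beside a lowest optimal signal of 80.4 and the 81.0 of Cdk2 just above it. Counting the 5000 strongest pooled rows, all 10 genes had one in the window, against 32.1% of protein-coding genes. That number was chosen after the ranks were seen and lies beyond the lowest of them, 4775 at stg, so the count of 10 was fixed in advance. Within 500 bp of an own start 8 genes had one, against 22.2%. The median of the strongest signal within 500 bp of an own start was 77.3 over the 10 members, with a range of 47.9 to 231. It was 59.9 over the 6746 protein-coding genes with such a row, with quartiles of 35.4 and 123. The members had a median length of 2838 bp and all protein-coding genes one of 2165 bp. Signals are the authors' values and order rows within a list only, and read depth is unknown.

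**Figure D1:**
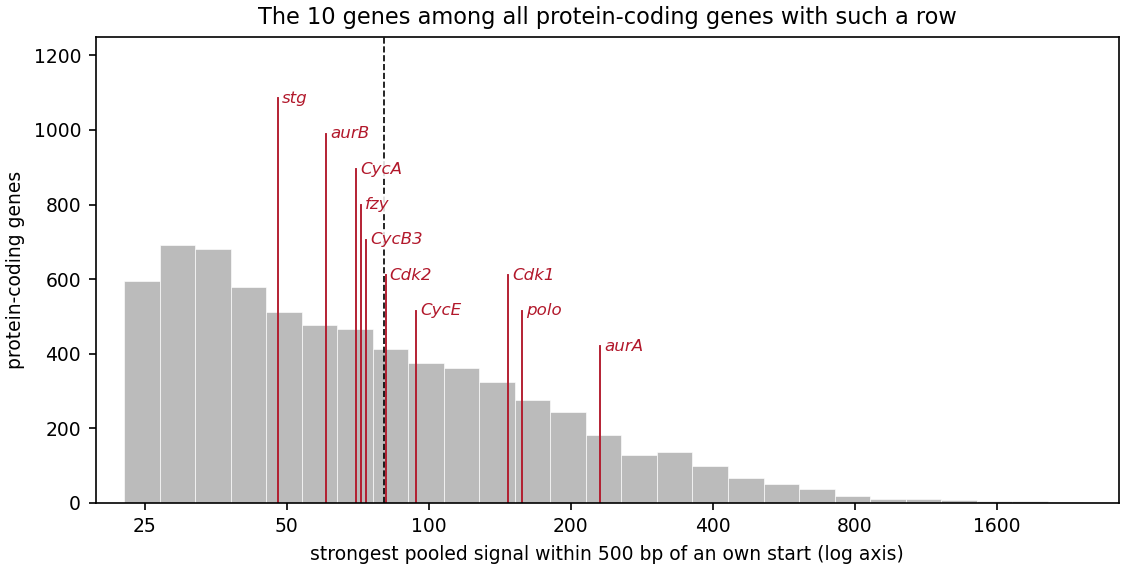
Number of protein-coding genes (y axis) by their strongest pooled signal within 500 bp of an own start (x axis, log scale), with a red line for each of the 10 genes and a dashed line at 80.4, the lowest optimal signal. Members run from stg at 47.9 to aurA at 231, and 5 of them lie right of the dashed line.

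The S phase genes were both in the optimal list, but CycE ranked higher in replicate 2 and Cdk2 in replicate 3. CycE (FBgn0010382, 2L 15727581 to 15748150, minus strand) is the longest member, at 20570 bp and with 3 annotated starts, and had 3 optimal rows, all in introns. The strongest, at 15741616, was 4994 bp inside the gene from its nearest start and reached 102 pooled, with 72.0 in replicate 2 and 32.7 in replicate 3. Those at 15747272 and 15747016 were 256 bp apart, 662 and 406 bp upstream of an internal start, and their rows overlap. The summit at 15747272 reached 97.5 pooled, with 63.1 in replicate 2 and 13.3 in replicate 3. The summit at 15747016 reached 94.0 pooled, with 75.3 in replicate 2 and 24.5 in replicate 3. All 3 sites were thus strong in replicate 2, with ranks from 2038 to 2567 of 30000, and weaker in replicate 3, where their ranks were 5189, 22639 and 8075 in the order given above. Replicate 3 had 10 rows in the CycE window and replicate 2 had 6, and those not matched to a pooled row had signals of at most 20.8 in replicate 3 and 18.0 in replicate 2. The row of replicate 3 nearest to the first CycE start, 47 bp upstream of it, had a signal of 20.8 and lay within 500 bp of the start of asRNA:CR44866 as well.

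Cdk2 (FBgn0004107, 3R 20735623 to 20738414, plus strand) had 1 optimal row, 39 bp upstream of its only start. It reached 81.0 pooled, with 35.6 in replicate 2 and 47.4 in replicate 3. Its rank was 5159 in replicate 2 and 2944 in replicate 3. In the pooled list the row ranked 3925 of the 3970 optimal rows, and its −log10 q-value was 3.42, below the 3.89 shared by the other 7 optimal rows of the members. The microRNA gene mir-995 lies inside Cdk2, with its start 339 bp from the summit.

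Cdk1 and the mitotic cyclins had 1 main site each, close to the start. Cdk1 (FBgn0004106, 2L 10384739 to 10386262, minus strand) had an optimal row 191 bp upstream, which reached 147 pooled and 59.9 in replicate 3. Replicate 2 listed no row in the Cdk1 window at all, and its nearest row was 870 bp from the summit with a signal of 17.0. The lowest signal in that list was 13.7. The pooled signal was 2.45 times that of replicate 3. Over optimal rows that have a replicate 2 row within 100 bp the median was 2.37, with 95% of rows between 1.47 and 4.56. Over the 103 that lack one but match replicate 3 it was 1.92, with 95% between 1.03 and 3.46. The Cdk1 value lay inside both ranges and so does not tell these classes of rows apart. A missing row is not a measured signal of 0.

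CycA (FBgn0000404, 3L 11826719 to 11833578, minus strand) had a pooled row 6 bp upstream of its start with a signal of 70.3. Its signal was 26.0 in replicate 2 and 42.4 in replicate 3. CycB3 (FBgn0015625, 3R 24867934 to 24870816, minus strand) had one 56 bp upstream that reached 73.5 pooled, with 23.0 in replicate 2 and 46.2 in replicate 3. Both cyclin rows ranked among the strongest 3970 of replicate 3, at 3505 for CycA and 3075 for CycB3, but only at 8227 and 10440 in replicate 2. The remaining rows in these windows were weaker. Replicate 3 alone had rows inside CycA, with signals of 11.1 to 16.3, and one of 26.7 beyond its 3′ end, 58 bp from the start of CG32095. In the coding sequence of CycB3, replicate 2 had a row of 14.6 and replicate 3 one of 12.1, and the other pooled row, of 29.0, lay in the 3′ UTR of the neighbouring gene Elal. The intronic CycA rows at 11829815 and 11830047 were also within the coding sequence of the nested gene CG7264.

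**Figure D2:**
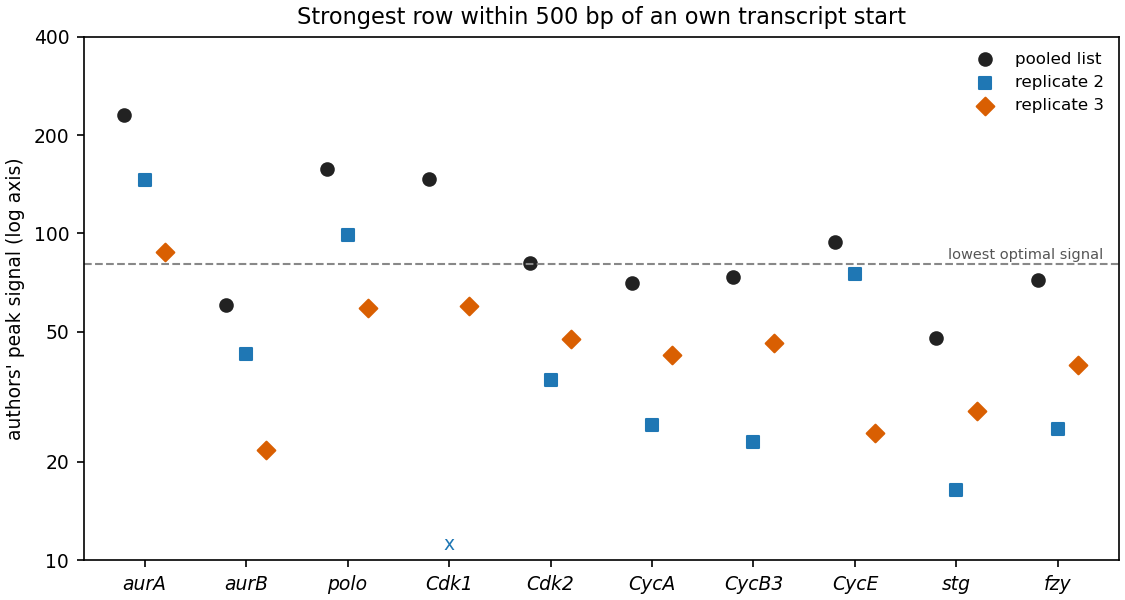
The authors' peak signal (y axis, log scale) of the strongest row within 500 bp of an own start of each gene, in the pooled list (circles), replicate 2 (squares) and replicate 3 (diamonds), with a cross where a list has no such row and a dashed line at 80.4, the lowest optimal signal. Replicate 2 has the higher value at aurA, aurB, polo and CycE and replicate 3 at Cdk2, CycA, CycB3, stg and fzy, beside a median ratio of replicate 3 to replicate 2 of 0.744 over optimal rows matched in both, and replicate 2 has no row at Cdk1. The aurB values are of different sites, 132 bp upstream in replicate 2 and 433 bp upstream in replicate 3. The dashed line applies to pooled signals only, and signals of separate lists are not on a common scale.

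The activators of mitotic entry and exit, stg and fzy, had no optimal row. In stg (FBgn0003525, 3R 29251826 to 29255800, minus strand) 5 pooled rows were spread over the window. The strongest, at 29251697 and just beyond the 3′ end, reached 69.5 pooled, with 41 in replicate 2 and 29.0 in replicate 3. The next, at 29256363, had 65.6 in the pooled list and 46.7 in replicate 2, and lay 126 bp from the start of CG45544 in replicate 2. It had no row of replicate 3 within 100 bp. The nearest was 127 bp away, with a signal of 17.4 and 5 bp from the start of CG45544. The row closest to a stg start, 43 bp downstream of it, reached 47.9 pooled, with 16.4 in replicate 2 and 28.6 in replicate 3. No single site thus stood out at stg.

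The main site of fzy (FBgn0001086, 2L 16310956 to 16313097, plus strand) lay 138 bp upstream of the start with a signal of 71.9. Its signal was 25.2 in replicate 2 and 39.5 in replicate 3, where it ranked 3870. The same summit was 92 bp from the start of cni, which runs the other way.

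The mitotic kinases included the strongest member and one of the weakest. The highest signal of the 10 genes was at aurA (FBgn0000147, 3R 11963124 to 11964826, plus strand), 163 bp upstream of the start, where it was 231 pooled, 146 in replicate 2 and 87.5 in replicate 3. Its pooled rank was 826, with rank 728 in replicate 2 and rank 1027 in replicate 3. A further optimal row 202 bp away, in the 5′ UTR, had 108 in the pooled list and 40.5 in replicate 3, while replicate 2 had a single row at 11963001, between the 2 pooled summits. The polo gene (FBgn0003124, 3L 20309654 to 20313466, plus strand) has 2 starts. Its optimal row lay between them, 92 bp upstream of the inner one and in the 5′ UTR of the longer transcript. The polo signal was 158 pooled, 98.7 in replicate 2 and 59.1 in replicate 3. It ranked 1384 in replicate 2 and 2023 in replicate 3. A pooled row in an intron had a signal of 25.8, and one of 31.1 lay 17 bp inside the neighbouring gene alphaSnap.

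Unlike aurA, aurB (FBgn0024227, 2L 10856797 to 10858094, minus strand) had no optimal row. Its strongest pooled row, at 70.4 pooled, 55.5 in replicate 2 and 19.8 in replicate 3, lay beyond the 3′ end and 10 bp upstream of the start of Dnz1. The row 162 bp upstream of the aurB start itself had 60.6 in the pooled list and 42.8 in replicate 2. Replicate 3 had only a row with a signal of 21.8 there, 433 bp from the aurB start and 9 bp from that of Stam.

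**Figure D3:**
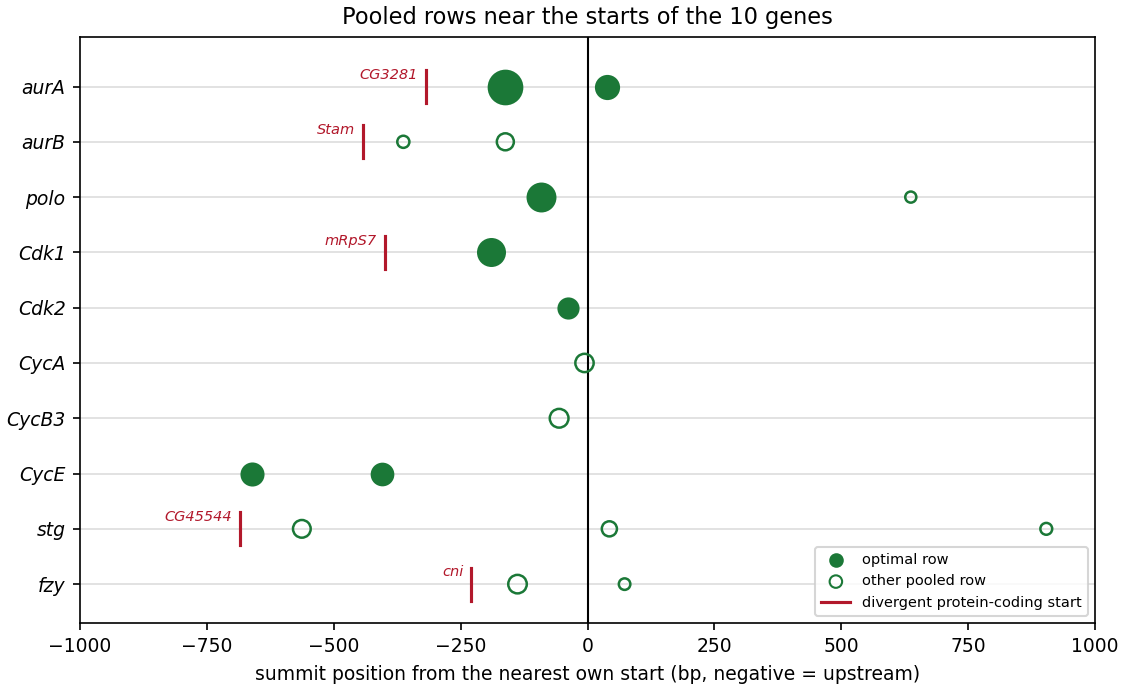
Position of each pooled row within 1 kb of an own start of the 10 genes (x axis, bp from the nearest own start, negative upstream), 1 line for each gene. Circle area is proportional to the pooled signal, filled circles are optimal rows and red ticks mark divergent protein-coding starts. For all 5 genes with a divergent start, the strongest row drawn lies between the gene's start and the divergent one, and the CycE rows are the optimal rows over 200 bp from a start.

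Several of these sites were shared with a neighbouring gene. A protein-coding gene on the other strand started within 1 kb upstream of 5 of the 10 members, beside 36.2% of all protein-coding genes. Between aurA and CG3281 the starts are 319 bp apart, between aurB and Stam 442 bp, between Cdk1 and mRpS7 400 bp, between stg and CG45544 685 bp and between fzy and cni 230 bp. The strongest summit at aurA was 156 bp upstream of CG3281, and that of Cdk1 was 209 bp upstream of mRpS7, which encodes a mitochondrial ribosomal protein. Both summits were thus near the middle of the interval, and the assay does not assign them to either gene. Over all genes with such a divergent start, 34.7% had an optimal row within 500 bp of their own start, against 9.61% of the other protein-coding genes. With 5 members on either side of that split, their counts are too small to be read against those shares. With a divergent start, aurA and Cdk1 had such a row and aurB, stg and fzy did not. Without one, polo, Cdk2 and CycE had such a row and CycA and CycB3 did not. Starts on both strands lay within 500 bp of 20.5% of all optimal rows. The strongest row near an own start was upstream of it in 9 of 10 members, with a median position of -115 bp, and in 73.0% of the 6746 protein-coding genes with such a row, with a median of -82 bp. The member on the downstream side was stg.

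The replicates placed different members among their strongest rows. Taking as many rows of each replicate as the optimal list has, 5 members had one in the window in replicate 2, namely aurA, aurB, polo, CycE and stg, against 27.5% of protein-coding genes. In replicate 3 there were 7, namely aurA, polo, Cdk1, Cdk2, CycA, CycB3 and fzy, against 27.3%. Both replicates had such a row at 2 members, aurA and polo, against 22.5% of protein-coding genes. The rows that placed aurB and stg among the strongest of replicate 2 were those at the starts of Dnz1 and CG45544. Within 100 bp, 6 of the 8 optimal rows of the members had a row in both replicates, beside 94.3% of all optimal rows. The exceptions were Cdk1 and the aurA row in the 5′ UTR, neither of which had a replicate 2 summit within 100 bp. The single replicate 2 row at aurA covers that 5′ UTR summit, with its own summit 162 bp away. At Cdk1, replicate 2 had no row in the window.

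Where both replicates had a row, the signal of replicate 3 was divided by that of replicate 2. The lists are not on a common scale, so each ratio is read only beside those of other rows. Over all optimal rows the median of this ratio was 0.744 and 95% of the rows lay between 0.298 and 2.23. It was 0.600 at aurA, 0.599 at polo and 1.33 at Cdk2. The CycE ratios were 0.453, 0.325 and 0.210 for the summits at 15741616, 15747016 and 15747272, of which the last was below that range. The rows of the last 2 summits overlap. The replicate 3 row of 24.5 that was matched to 15747016 also covers 15747272, so the lowest ratio depends on how these rows were paired. Of the members just under the threshold, CycB3 had 2.01, CycA 1.63 and fzy 1.57. The strongest rows were at 0.707 for stg and 0.356 for aurB. Over pooled rows from the optimal threshold to rank 5000 the median was 0.816 and the same share of rows lay between 0.278 and 2.84. The ratios named here thus lay within the range of their own class of rows, except for that CycE summit.

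**Figure D4:**
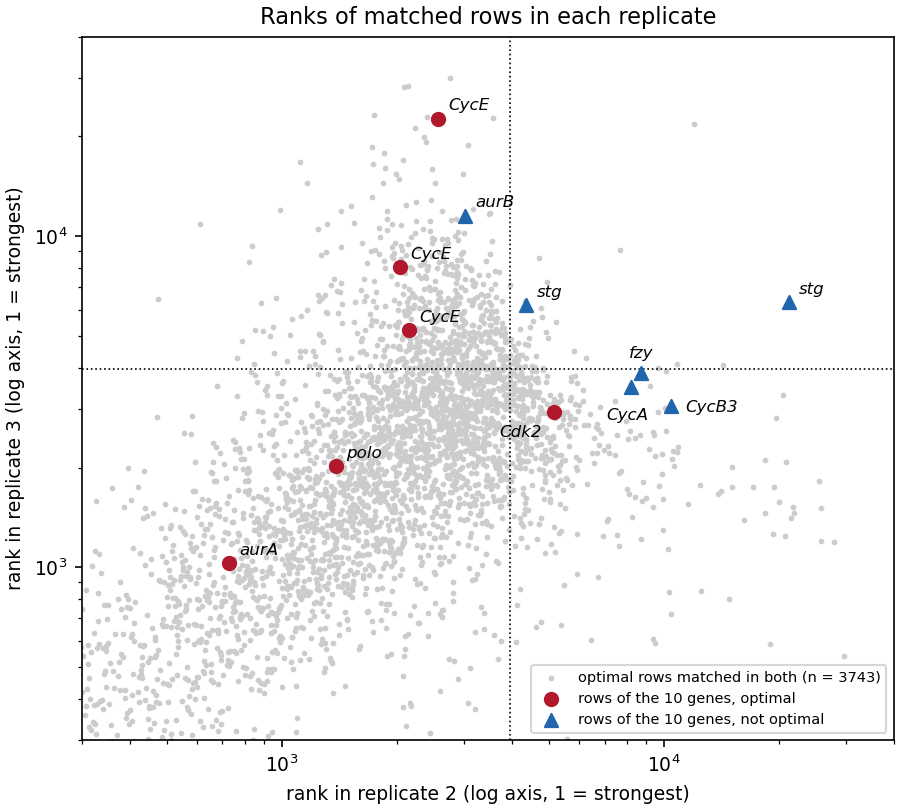
Rank by signal in replicate 2 (x axis) and replicate 3 (y axis), both on log axes that begin at 300, for the 3743 optimal rows matched in both lists (grey) and the matched rows of the 10 genes (red circles optimal, blue triangles not optimal), with dotted lines at rank 3970. Among the matched rows of the 10 genes only those of aurA and polo lie inside both lines, CycE lies toward weak ranks in replicate 3, and CycA, CycB3, fzy and Cdk2 toward weak ranks in replicate 2.

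Other genes of the pathway were taken from a list of 67 genes in 6 groups, also chosen with earlier results known. Of these, 31 (46.3%) had an optimal row in the gene or within 1 kb, against 27.4% of all protein-coding genes. The strongest row was within 500 bp of an own start in 20 of these 31 (64.5%), against 61.4% of the 3827 protein-coding genes with an optimal row. It was within 500 bp of another gene's start in 20 (64.5%), against 57.8%. Among cyclins and Cdk partners 4 of 10 had an optimal row. CycB, whose mRNA is repressed by Pum in the germ cells, had one with a signal of 1043 in its window, ranked 28 in the pooled list, but 3339 bp from its start. Cdk4 had 171, in a row 630 bp from an own start, Cdk7 96.1 and CycH 80.8. Regulators of Cdk1 had one in 8 of 11 cases, led by lok, a checkpoint kinase gene, at 179, trbl at 171, mts at 163, mei-41 at 143 and grp at 121. The trbl and grp rows were 3158 and 923 bp from an own start, and that of grp was within 500 bp of a start of CG31807. The grp row ranked 1891 in replicate 2 and 10455 in replicate 3. The inhibitory kinases of Cdk1, Wee1 and Myt1, had none, with strongest pooled signals of 24.1 for Wee1 and 45.9 for Myt1. Regulators of the G1 to S phase transition had one in 7 of 12, with Dp, the E2F partner, at 427, dup at 257, Rbf2 at 220, E2f1 at 213 and Myc at 171. The rows of E2f1 and Myc were 13261 and 8743 bp from an own start, and that of E2f1 was within 500 bp of a start of InR. The other optimal rows named here, where no distance is given, were within 500 bp of an own start. Those of lok, mei-41, mts, dup, Rbf2 and Cdk7 were within 500 bp of another gene's start as well.

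Partners of the aurora and polo kinases had an optimal row in 4 of 9 cases, with 185 at cnn, 124 at Incenp, 87.9 at mei-38 and 84.5 at Det. The mei-38 row was 1465 bp from an own start and near a start of rush, and ranked 2235 in replicate 2 and 21156 in replicate 3. Spindle checkpoint genes had one in 3 of 8, with 578 at rod, 216 at BubR1 and 174 at Bub3. The rod row was 7579 bp from its start and near a start of CG1635. The rows of Incenp, Det and Bub3 were near their own start and also near another gene's start. APC/C and separase genes had one in 5 of 17 (29.4%), near the share over all protein-coding genes. In that group fzr, an APC/C activator gene like fzy, had a row with a signal of 648 that lay 10520 bp from its start and near a start of CG3009. The row of APC7 had 263, that of Cdc16, shared with orb, 176, that of cort 119 and that of APC4 88.2. Those of APC7 and cort were 2272 and 2782 bp from an own start, and that of cort was near starts of CG34310 and Spn27A. The anaphase genes pim and thr had no optimal row, and pim had a strongest signal of 31.4 while thr had no pooled row in its window.

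**Figure D5:**
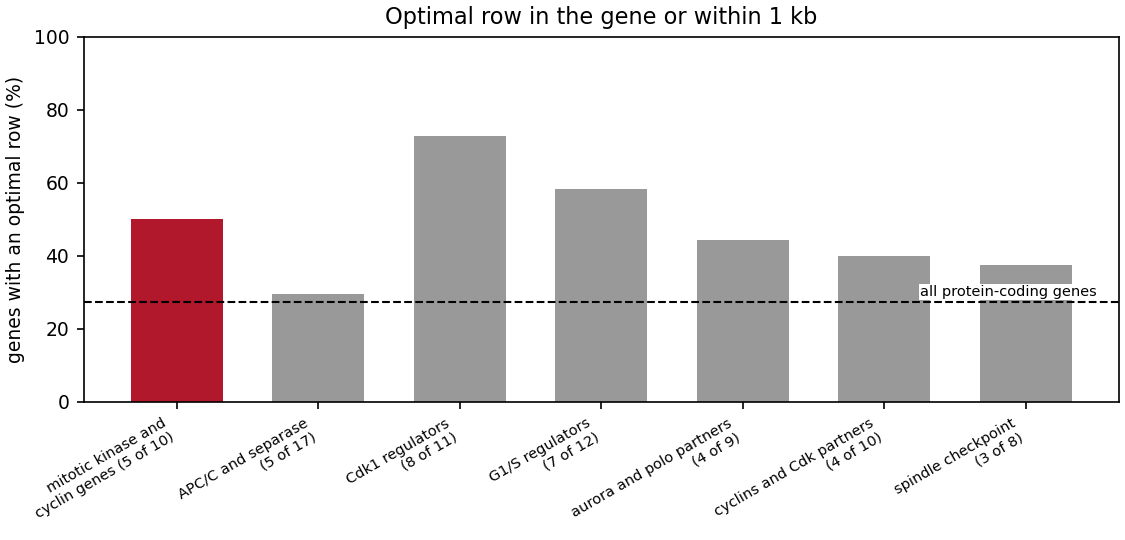
Share of genes (y axis, %) with an optimal row in the gene or within 1 kb, for the 10 mitotic kinase and cyclin genes (red) and 6 groups of other cell cycle genes (grey), with a dashed line at 27.4%, the share of all protein-coding genes. The bars run from 29.4% for APC/C and separase genes to 72.7% for regulators of Cdk1, and the differences were not tested.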

How the data were processed

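The 2 samples were described by peak lists on dm6. Per the deposited readme files, the replicate and pooled lists were derived from alignments and a control file, and the optimal list from the replicate and pooled lists. For the aligner, peak caller and settings, nothing is given in the sources used here. The peak signal (column 7) and the −log10 q-value (column 9) were deposited by the authors. The lists held 26275 pooled, 3970 optimal and 30000 rows per replicate, and all 3970 optimal rows were among the strongest pooled rows. Sequencing depth is unknown. The dm3 lists were not used.

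Summits are column 2 plus column 10, given 1-based. Ranks follow signal within a list. Genes came from Ensembl release 115, whose bounds equalled those of RefSeq Release 6 for all 10 members. Rows were matched between lists within 100 bp. With 1 group, no contrast was tested, and counts stand beside the same count over all protein-coding genes. The members and lists were chosen with earlier results of these data known. All 10 members were named, with neighbours having starts within 500 bp of their rows. Up to 5 genes with the strongest optimal row per pathway group were named, with some of their neighbours. Wee1, Myt1, pim and thr were named after their values were seen. Pathway symbols were matched by symbol for 62, by letter case for 3 and by synonym for 2, and ssp1 and mei-38 were 1 gene. A further 24 planned and 10 added alternatives were set. The search was tested on simulated data. Python 3.11.15, numpy 2.4.6, pandas 2.3.3 and matplotlib 3.10.9 were used.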

Additional observations from a re-analysis of the deposited data

How the results depend on the processing

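No paired analysis was possible because both samples belong to 1 group. The 5 members with an optimal row stayed at 5 with windows of 500 bp (24.7% of genes) or 2 kb (32.9%). They were also 5 with any overlap of the peak (28.4%) and with close summits dropped (27.4%). They were 3 with the gene span only (beside 10.4% of genes), 3 with the stronger 50% of optimal rows (16.6%) and 10 with the 5000 strongest pooled rows (32.1%). The 3970 strongest rows of 1 replicate alone, used in place of the optimal list, gave 5 to 7 (27.3% to 27.5%). The count within 500 bp of an own start was 4 with 250 bp (14.9%), 5 with 1 kb (21.3%), 3 with the stronger 50% of rows (10.9%) and 8 with the 5000 strongest pooled rows (22.2% of genes). It was 7 with the strongest rows of replicate 3 alone (18.4%) and 3 with those of replicate 2 alone (18.6%). Optimal rows of members matched in both replicates were 6 of 8, 4 within 50 bp (77.7% of all optimal rows), 7 within 250 bp (98.6%), and 2 when only the strongest rows of each replicate were searched (68.8%). Of the other cell cycle genes, 12 had an optimal row with the gene span only (10.4% of all genes) and 20 with the stronger 50% (16.6%), while single replicates gave 30 to 34 (27.3% to 27.5%). The motif counts at the 8 optimal rows did not change with windows of 50 or 200 bp. Over all optimal rows the share with the motif went from 2.54% to 7.2% for the DRE between these windows. It went from 4.51% to 16.4% for the Pum element and from 0.756% to 4.36% for the E2F element. At the start rows of the 10 members the count of the Pum element was 1 within 200 bp (13.3% of genes), in windows chosen after seeing the data. The DRE count stayed at 2 with 50 bp (5.46%) and 200 bp (13.4%), and the E2F count at 0 (1.02% and 4.73%). The cause of these differences was not tested. Without read counts, a row missing from a list cannot be told apart from one just below its lowest signal.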
